A study of Mus musculus with 10 samples.

Results

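The p53 tumour suppressor gene Trp53 and 9 genes that p53 activates were followed in mouse kidney after 7 daily injections of cyclosporin A (CsA), a calcineurin inhibitor given as an immunosuppressant. The 10 genes were Trp53, Mdm2, Cdkn1a, Ccng1, Gadd45a, Bax, Bbc3, Phlda3, Sesn1 and Zmat3. Each was found by its gene symbol in the deposited table of log2 expression values where the brightest feature on average was to stand for a gene with several. Every one of them had a single feature, and no filter on dim features was applied, so all 10 were tested among 30895 genes.

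The 5 CsA samples came from mice given 60 mg/kg CsA subcutaneously each day, and the 5 vehicle samples from mice given the solvent cremophore. The animals had a C57BL/6 background, an age of 10 to 12 weeks and chow with 0.05% sodium, and belonged to a line in which a Pax8-rtTA transgene allows Vhl to be deleted in tubule cells after doxycycline. Nothing in the labels states if doxycycline was given to these animals or that each array was a separate animal, so p-values measure the spread between these samples. The series asked which pathways come before the kidney injury seen after longer CsA treatment. Whole halved kidneys were ground, so fewer cells of a type and less RNA per cell cannot be told apart.

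CsA replicates 1 and 2 carried the female transcript Xist at 9.21 and 9.15 log2 units and a mean of 4 Y-linked genes at 3.90 and 4.03. The other 8 arrays had Xist at 4.82 or less and Y-linked means of 6.91 or more. By these transcripts 2 of the 5 CsA arrays carried female RNA and 3 male RNA, and all 5 vehicle arrays male RNA, which the labels do not mention. Results are therefore also given for the 8 male arrays. Kidney genes such as Lrp2, Umod and Aqp2 were strongly expressed in every array, with a mean of 9 such genes between 10.46 and 10.65 log2 units in CsA arrays and between 10.46 and 10.57 in vehicle arrays.

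p53 is a transcription factor that is made constantly and destroyed quickly, because the ubiquitin ligase Mdm2, itself a p53 target, marks it for the proteasome. DNA damage and other stresses free p53 from Mdm2, and p53 then binds its sites and switches on genes for cell cycle arrest, repair and cell death. Its activity is set mainly at the protein level, so the mRNAs of its targets are commonly read as its output. In injured kidney tubules the arrest gene Cdkn1a is a well known member of this response.

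One of the 10 genes changed over all arrays. Ccng1, a direct p53 target that encodes the atypical cyclin G1 and helps regulate Mdm2, was 1.40-fold lower in CsA kidneys. None of the 10 rose by limma's adjusted p, and 3 had an unadjusted p under 0.05, namely Ccng1 and Mdm2, which were lower, and Bbc3, which was higher. Over all genes tested, 6.49% were called at an adjusted p under 0.05 (2.95% higher and 3.54% lower) and 20.8% had an unadjusted p under 0.05, so 1 and 3 of 10 are shares near the background. The 10 differences had a median of 0.06 log2 units, with 6 positive and 4 negative, against a median of 0.01 over all genes. The median size of the differences was 0.11 log2 units, and it was also 0.11 over all genes. In the male arrays no member passed limma's threshold, and an unadjusted p under 0.05 was reached by 3 of them, Ccng1, Bbc3 and Sesn1. There 3.17% of all genes were called and 18.8% had such a p.

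**Figure D1:**
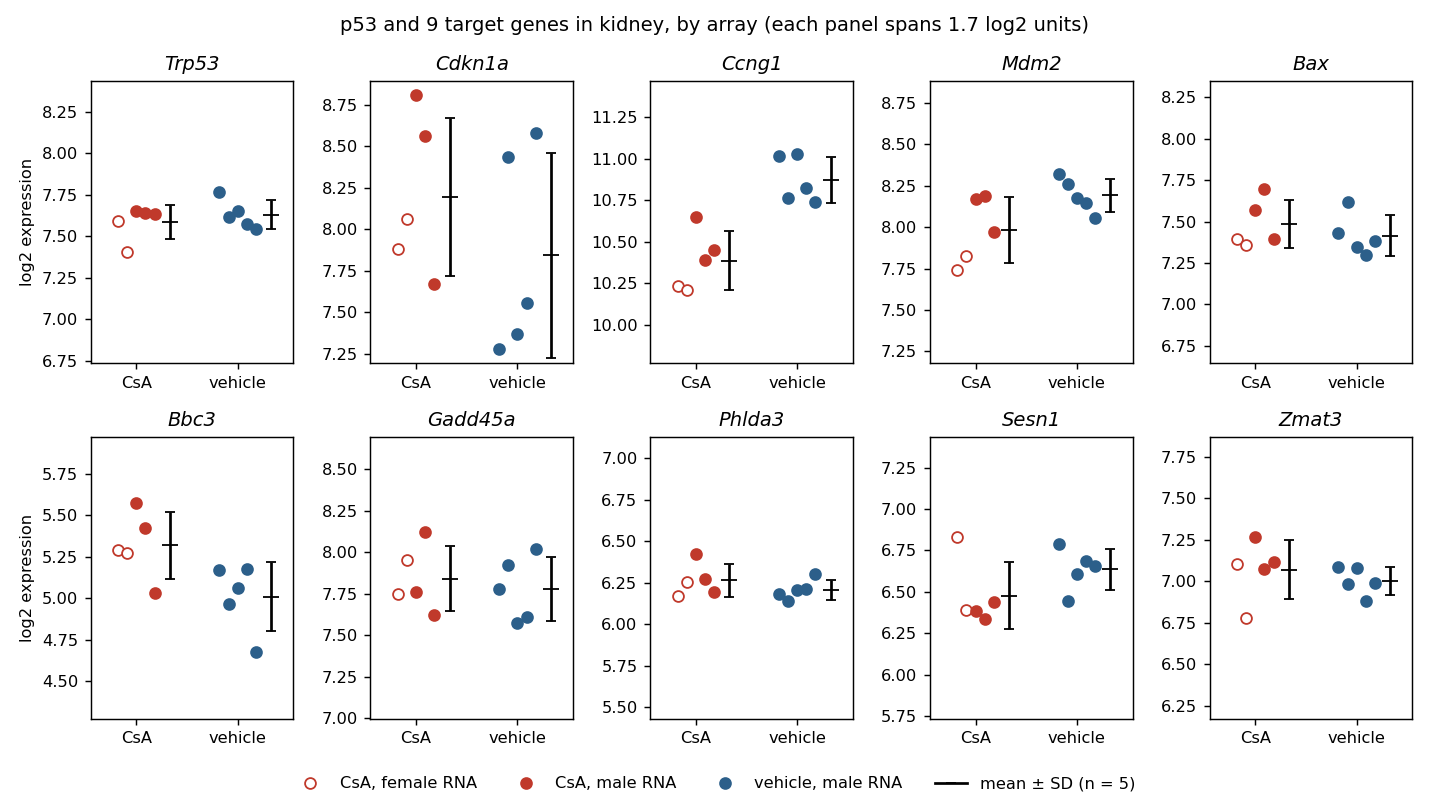
Log2 expression (y axis) of the 10 genes in each CsA and vehicle array, 1 point per array, with the mean and SD at the right of each group; every panel spans the same number of log2 units, and open points are the CsA arrays with female RNA. Ccng1 separates the groups, at 10.65 or less in CsA and 10.74 or more in vehicle, while Cdkn1a spreads over more than a log2 unit within each group.

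The clearest member was Ccng1. It lay at 10.23, 10.21, 10.65, 10.39 and 10.45 log2 units in CsA replicates 1 to 5, against 11.02, 10.77, 11.03, 10.82 and 10.74 in vehicle replicates 1 to 5. Every CsA array was below every vehicle array, and the 2 CsA arrays with female RNA were the lowest. Groups failed to overlap in 9.09% of all genes, and among the 10 p53 genes in Ccng1 alone. The means were 10.39 ± 0.18 in CsA and 10.87 ± 0.14 in vehicle (SD, n = 5 each), and the difference of -0.49 ± 0.10 (SE) passed limma's test (adjusted p = 0.0123). In the male arrays the difference was -0.38 ± 0.10 (SE) and missed the threshold (limma adjusted p = 0.0714). Since all 5 CsA arrays lay below all vehicle arrays, the 3 male ones had to as well, so this adds nothing. In that smaller comparison 15.1% of all genes did not overlap. A term for female RNA in the fit of all arrays gave an adjusted p of 0.0575, where 3.27% of all genes were called. Since only CsA arrays carried female RNA, that fit must return the difference of the male arrays for every gene. It therefore adds no second estimate. Leaving out each of the 10 arrays in turn kept the call, with differences between -0.55 and -0.45.

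p53 recognises a site made of a pair of half-sites of 10 bases each, and the promoter windows of the members were searched for it to show how the members differ in the site that groups them. The windows were those of RefSeq on GRCm38.p6, from 250 bases before to 50 bases after an annotated start, and 9 of the 10 genes had at least 1, with 13 windows in all. A half-site, called by the p53 half-site consensus, which reads the same on both strands, was found in 7 of these 13 windows and in 8.36% of the 32851 promoter windows of the table. A site of 20 bases, with both half-sites abutting and at most 1 mismatch, was found in 2 of the 13, those of Ccng1 and of the upstream start of Cdkn1a, and in 0.09% of all windows. The 250 bases before the start are given for these genes, 5′ to 3′ on the gene's own strand, with half-sites and the 20-base site in capitals.
Ccng1, chr11:40755287-40755536, minus strand: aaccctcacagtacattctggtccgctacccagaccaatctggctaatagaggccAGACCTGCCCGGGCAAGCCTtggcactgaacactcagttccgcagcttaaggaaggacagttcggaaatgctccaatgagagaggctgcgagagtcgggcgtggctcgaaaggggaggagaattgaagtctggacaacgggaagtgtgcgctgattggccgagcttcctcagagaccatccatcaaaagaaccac
Cdkn1a, chr17:29090729-29090978, plus strand: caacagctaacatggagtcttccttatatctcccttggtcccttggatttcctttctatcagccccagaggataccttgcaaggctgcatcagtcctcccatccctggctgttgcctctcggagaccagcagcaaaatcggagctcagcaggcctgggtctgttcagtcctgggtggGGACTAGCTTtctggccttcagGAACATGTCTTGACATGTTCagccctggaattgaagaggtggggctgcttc
The Ccng1 site began at position -195 and the Cdkn1a site at -51, counted from the annotated start. Cdkn1a also held a separate half-site at -73 in that window and none in the window of its second start. The other half-sites are given by themselves, in capitals, since they show how far they differ from one another.
Trp53 at -75: GGACTTGCCC
Mdm2 at -186: GAACTTGCCT
Bax at -201: AGGCAAGCTT
Gadd45a at -40: GGGCTAGCCC
Sesn1, second start, at -173: AAGCTTGTTT
The windows of Bbc3 and Phlda3 held no exact match to the half-site consensus. The closest 20-base stretch had 3 mismatches in the first Bbc3 window, at -97, and 5 in the Phlda3 window, at -43. A match is only a description of these letters. A window without an exact match says nothing about p53 binding in that window or elsewhere in the gene. Of the pair with a nearly whole site, Ccng1 was called lower in CsA kidneys and Cdkn1a did not pass the test.

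Trp53 and Mdm2 form the core of the loop. Trp53 mRNA lay at 7.59, 7.41, 7.65, 7.64 and 7.63 log2 units in CsA replicates 1 to 5, against 7.77, 7.62, 7.65, 7.57 and 7.54 in vehicle replicates 1 to 5. The groups overlapped almost completely, with CsA replicate 2 the lowest array. The difference was -0.05 ± 0.07 (SE) with a 95% interval of -0.20 to 0.11 (limma adjusted p = 0.774), so a change in the mRNA beyond 0.20 log2 units lay outside the interval. Intervals here are for single genes and are not adjusted for the number of genes. In the male arrays the difference was 0.01, with an interval of -0.15 to 0.17.

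Mdm2, the p53-induced ligase that degrades p53, lay at 7.74, 7.83, 8.17, 8.19 and 7.97 log2 units in CsA replicates 1 to 5, against 8.32, 8.26, 8.17, 8.15 and 8.06 in vehicle replicates 1 to 5. The 2 CsA arrays with female RNA were the lowest of all, and the male CsA arrays overlapped the vehicle arrays. The mean was 7.98 ± 0.20 in CsA and 8.19 ± 0.10 in vehicle (SD, n = 5 each), a difference of -0.21 ± 0.10 (SE) with an unadjusted p of 0.0493 and a limma adjusted p of 0.239. In the male arrays the difference was -0.08, with a 95% interval of -0.27 to 0.11 (limma adjusted p = 0.662).

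Of the 10 members, the arrest gene Cdkn1a had the largest SD in each group. Cdkn1a, which encodes the cyclin-dependent kinase inhibitor p21, lay at 7.88, 8.06, 8.81, 8.56 and 7.67 log2 units in CsA replicates 1 to 5, against 7.28, 8.43, 7.37, 7.55 and 8.58 in vehicle replicates 1 to 5. CsA replicates 3 and 4 were high, but vehicle replicates 2 and 5 were above the remaining 3 CsA arrays, so the groups overlapped. The SD was 0.48 in CsA and 0.62 in vehicle, which lay at percentiles 98.6 and 99.6 of the SDs of all genes in those groups. The difference of 0.35 ± 0.29 (SE) had a 95% interval of -0.28 to 0.98 (limma adjusted p = 0.542), a range wide enough to include 0. The male arrays gave 0.50 with an interval of -0.29 to 1.29 (limma adjusted p = 0.491).

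Gadd45a, a stress-induced protein that restrains the cell cycle and takes part in repair, ranged from 7.62 to 8.12 log2 units in CsA arrays and from 7.57 to 8.02 in vehicle arrays. Its difference was 0.06 ± 0.11 (SE), and 0.05 in the male arrays (limma adjusted p = 0.820 and 0.878). Within the vehicle group the arrays high for Cdkn1a, replicates 2 and 5, were also the highest for Gadd45a, at 7.92 and 8.02. Within the CsA group Gadd45a was highest in replicate 4, at 8.12, whereas replicate 3, with the highest Cdkn1a, had 7.76.

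**Figure D2:**
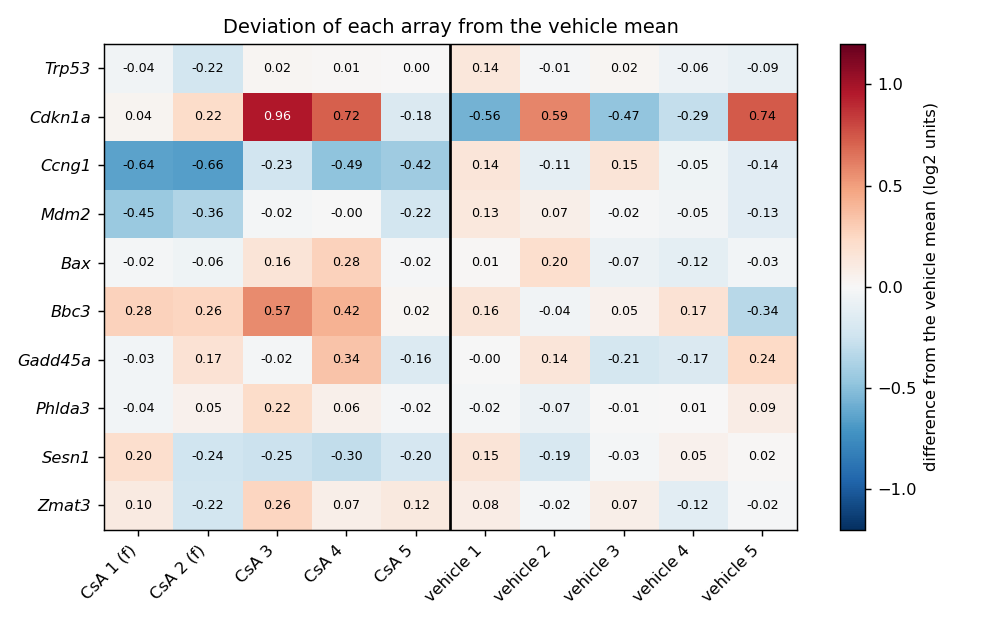
Difference of each array from the vehicle mean of the same gene in log2 units (colour and printed value), genes in rows and arrays in columns, CsA left of vehicle, with (f) for female RNA. Ccng1 was below the vehicle mean in all 5 CsA arrays, by 0.23 to 0.66, while Cdkn1a lay both above and below it in each group.

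Of the death genes, Bbc3 came closest to a rise. It encodes PUMA, a BH3-only protein that frees the pore-forming Bax, and its feature was of middling brightness, at the 48.2 percentile of mean signal. Bbc3 lay at 5.29, 5.27, 5.57, 5.42 and 5.03 log2 units in CsA replicates 1 to 5, against 5.17, 4.97, 5.06, 5.18 and 4.67 in vehicle replicates 1 to 5. All CsA arrays but replicate 5 were above every vehicle array. The difference was 0.31 ± 0.12 (SE), with an unadjusted p of 0.0213 and a limma adjusted p of 0.150, and 0.34 in the male arrays (limma adjusted p = 0.254).

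Bax, which permeabilises the outer mitochondrial membrane, ranged from 7.36 to 7.70 log2 units in CsA arrays and from 7.30 to 7.62 in vehicle arrays. Its difference was 0.07 ± 0.09 (SE; limma adjusted p = 0.713), with a 95% interval of -0.12 to 0.26. Phlda3, a pleckstrin homology domain protein that opposes Akt signalling, ranged from 6.17 to 6.42 in CsA arrays and from 6.14 to 6.30 in vehicle arrays. The difference of Phlda3 was 0.06 ± 0.07 (SE; limma adjusted p = 0.702), with an interval of -0.09 to 0.20. CsA replicates 3 and 4 were the 2 highest CsA arrays for Trp53, Cdkn1a, Mdm2, Bax, Bbc3 and Phlda3. They were the 2 lowest for Sesn1. For Ccng1 and Zmat3 only replicate 3, and for Gadd45a only replicate 4, was among the 2 highest. This description of those arrays was not tested.

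Sesn1 and Zmat3 serve metabolism and RNA. Sesn1 encodes sestrin 1, which restrains mTORC1 when amino acids are scarce, and lay at 6.83, 6.39, 6.38, 6.34 and 6.44 log2 units in CsA replicates 1 to 5, against 6.79, 6.44, 6.61, 6.69 and 6.65 in vehicle replicates 1 to 5. CsA replicate 1, with female RNA, was the highest array of all, and the other 4 CsA arrays were the lowest. Over all arrays the difference was -0.16 ± 0.10 (SE; limma adjusted p = 0.413). In the male arrays, where the groups did not overlap, it was -0.25 ± 0.09 (SE), with an unadjusted p of 0.0153 and a limma adjusted p of 0.150, and 15.1% of all genes did not overlap in that smaller comparison. Zmat3, a zinc finger protein that binds RNA and affects splicing, ranged from 6.78 to 7.26 in CsA arrays and from 6.88 to 7.09 in vehicle arrays. Its difference was 0.07 ± 0.09 (SE; limma adjusted p = 0.736), and 0.15 in the male arrays (limma adjusted p = 0.346).

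**Figure D3:**
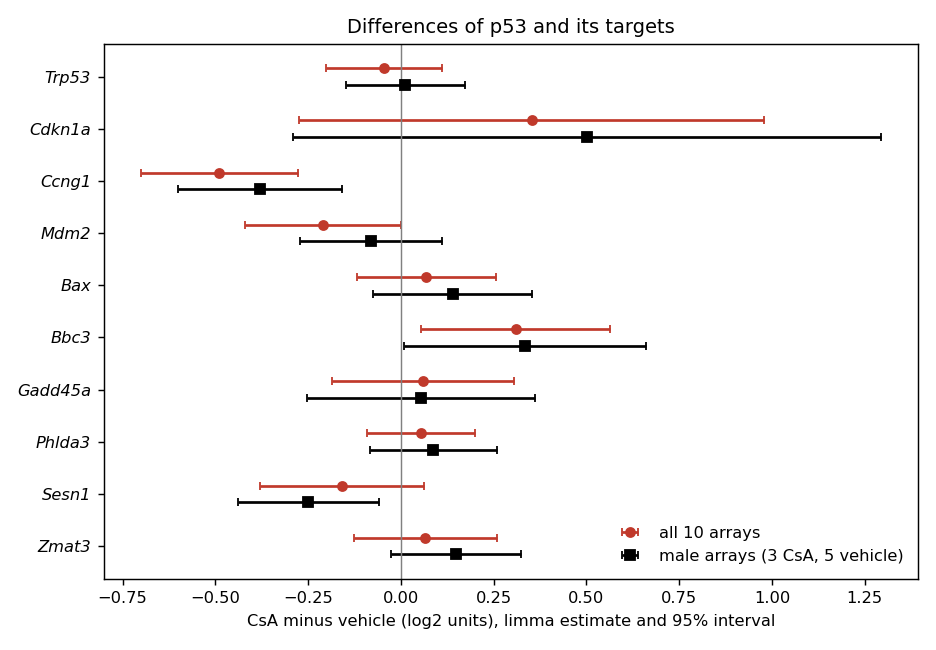
CsA minus vehicle in log2 units (x axis) with its 95% interval from limma, for all 10 arrays (circles) and the 8 male arrays (squares). The interval of Ccng1 lies below 0 in both, from -0.70 to -0.28 and from -0.60 to -0.16. That of Bbc3 lies above 0 in both, from 0.05 to 0.56 and from 0.01 to 0.66. Those of Mdm2 over all arrays (-0.42 to -0.0007) and of Sesn1 in the male arrays (-0.44 to -0.06) also exclude 0. The interval of Cdkn1a is the widest, from -0.28 to 0.98 over all arrays. Intervals are not adjusted for the number of genes.

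A further 26 genes widely described as p53 targets showed no common direction either. Of these, 1 rose and 1 fell over all 10 arrays, with a median difference of 0.02 log2 units. An unadjusted p under 0.05 was reached by 6, against 20.8% of all genes. Limma called 3 of the 26 lower with genes at or above the median of mean signal. It called 2 lower with the trend and robust options of eBayes. In the male arrays 1 was called lower and none higher. Rrm2b, the ribonucleotide reductase subunit that supplies nucleotides for repair, lay at 7.37, 7.29, 7.46, 7.66 and 7.48 log2 units in CsA replicates 1 to 5, and at 7.86 or more in every vehicle array. All CsA arrays were below all vehicle arrays, the mean being 1.38-fold lower in CsA (limma adjusted p = 0.00517), and Rrm2b also fell in the male arrays (difference -0.38, limma adjusted p = 0.0320). Dcxr, a carbonyl and xylulose reductase of tubule cells, was 1.31-fold higher over all arrays (limma adjusted p = 0.00955), and in male arrays its difference of 0.34 just missed the threshold (0.0511 by limma). The p53-induced genes Trp53inp1, Eda2r, Aen and Sesn2 differed by -0.21 ± 0.11, -0.07 ± 0.11, 0.20 ± 0.10 and 0.25 ± 0.14 (SE), none past the threshold (limma adjusted p = 0.288, 0.758, 0.265 and 0.323).

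Of 21 regulators and relatives of p53, 2 fell, none rose, and the median difference was -0.08 log2 units. An unadjusted p under 0.05 was reached by 8, against 20.8% of all genes. Negative differences numbered 15 of the 21, against 14907 of 30895 over all genes. Limma called 4 lower with genes at or above the 25th percentile of mean signal, and 5 at or above the median. It called 4 with the trend and robust options of eBayes and 4 with array weights. The DNA damage kinase gene Atr was 1.28-fold lower and Cop1, a ubiquitin ligase that can act on p53, 1.19-fold lower (limma adjusted p = 0.0207 and 0.0328), and neither passed in the male arrays (0.0586 and 0.0951). Atr missed the threshold without vehicle replicate 1, 2 or 3 in turn (adjusted p = 0.0537, 0.0507 and 0.0546). Cop1 missed it in 8 of the 10 such fits, those without CsA replicates 2, 3 and 5 and each vehicle array (0.0512 to 0.0769), so that without vehicle replicates 1, 2 or 3 none of the 21 was called, while without CsA replicate 1 the genes Prkdc and Rchy1, named after their values were seen, were called lower as well. Mdm4, the Mdm2 relative that blocks p53, differed by -0.11 ± 0.09 (SE; limma adjusted p = 0.527). Limma called none of 10 family relatives of the members, 2 of which had an unadjusted p under 0.05, and without vehicle replicate 2 it called Gadd45b higher (adjusted p = 0.0380), a name chosen after its values were seen. The cyclin G2 gene Ccng2, the relative of Ccng1, had the smallest p of these, with a difference of -0.38 ± 0.12 (SE; limma adjusted p = 0.0784). Ccng2 was called lower with genes at or above the median signal (0.0327) and with the trend and robust options of eBayes (0.0464). With genes at or above the median signal, 1 of the 10 relatives was also called higher.

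Over all genes 6.49% were called, 2.95% higher and 3.54% lower, and 20.8% had an unadjusted p under 0.05. The counts in downstream pathways are to be read beside these shares. Of 18 genes of mitochondrial apoptosis beyond Bax and Bbc3, 2 fell and none rose: the caspase inhibitor Xiap was 1.24-fold lower (limma adjusted p = 0.0262) and cytochrome c, Cycs, 1.35-fold lower (limma adjusted p = 0.0343). In the male arrays Xiap passed (difference -0.36, limma adjusted p = 0.0314) and Cycs did not (-0.27, limma adjusted p = 0.0923). Over all arrays Xiap missed the threshold without CsA replicate 2, 3 or 5 or vehicle replicate 1, 3 or 4 (0.0564 to 0.0670), and Cycs without CsA replicate 2 or 4 or any vehicle array (0.0502 to 0.0848). Without CsA replicate 2 or vehicle replicate 1, 3 or 4 none of the 18 fell, and without CsA replicate 1 Bcl2a1a, named after its values were seen, was called higher (adjusted p = 0.0338). Of 17 repair and damage-sensing genes, 1 rose, the histone variant H2ax, which is phosphorylated at DNA breaks. H2ax was 1.35-fold higher (limma adjusted p = 0.0352), and its difference of 0.52 in male arrays had an adjusted p of 0.0499. Over all arrays it missed the threshold, and the list had no call, without CsA replicate 1 or 5 or vehicle replicate 1, 3, 4 or 5 (0.0568 to 0.0777). With every feature tested on its own, H2ax and Cycs missed it too (limma adjusted p = 0.0576 and 0.0561). Limma called 1 of the 17 repair genes lower with genes at or above the 25th percentile or the median of mean signal. The trend and robust options of eBayes also gave 1 lower. Over all arrays limma called none of 20 cell cycle genes that p21 represses through the DREAM complex, with a median difference of 0.10 and 7 genes under 0.05 before adjustment. Among these the proliferation marker Mki67 had the smallest p, with a difference of 0.40 ± 0.12 (SE; limma adjusted p = 0.0709), and without CsA replicate 2 it passed (0.0424). Mki67 also passed with genes at or above the 25th percentile or the median of mean signal (0.0473 and 0.029). It passed too with the trend and robust options of eBayes (0.0461). Without CsA replicate 1, Cdk1, named after its values were seen, was called higher (adjusted p = 0.0429). With a term for female RNA, Ccnb2, also named after its values were seen, was called higher (difference 0.53, limma adjusted p = 0.0492), and the male arrays gave no call in this list.

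**Figure D4:**
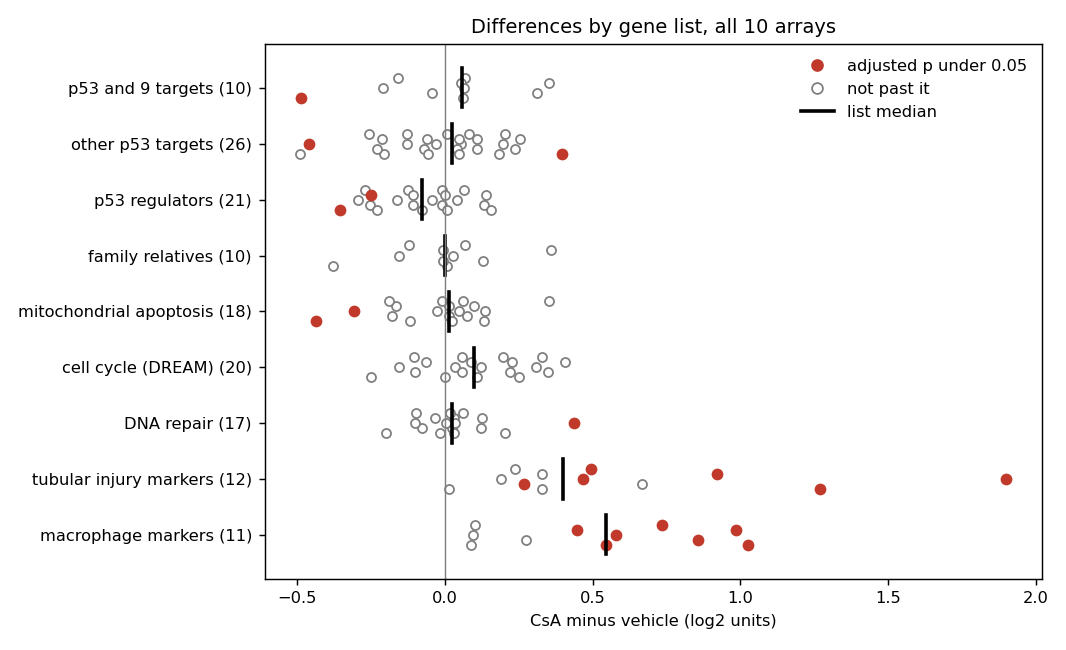
CsA minus vehicle in log2 units (x axis) for each gene of 9 lists, with list sizes in parentheses, called genes filled and list medians as bars. The medians of the p53 lists lie between -0.08 and 0.06, and those of the tubular injury and macrophage markers at 0.40 and 0.54.

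Markers of injury and of other cells differed between the same arrays. Of 12 tubular injury markers 6 rose, among them Spp1, Lcn2, Clu and Vcam1, which were 1.89-fold, 2.41-fold, 1.38-fold and 1.41-fold higher. Havcr1 had the largest difference of the list, 3.73-fold higher (limma adjusted p = 0.0325), and 5.92-fold in the male arrays (0.0165). It missed the threshold in 8 of 20 alternative fits, with adjusted p up to 0.0732. Without vehicle replicate 2, 3 of the 12 were called, and Vcam1 missed the threshold without vehicle replicate 2 or 3 (limma adjusted p = 0.0563 and 0.0506). Limma called 4 of the 12 within the male arrays and 4 when female RNA was a term in the fit, and Vcam1 was in neither count (adjusted p = 0.1001 and 0.0846). The mean of this list lay between 6.90 and 7.41 log2 units in CsA arrays and between 6.42 and 6.57 in vehicle arrays. It was highest in CsA replicate 3 (7.41), which also had the highest Cdkn1a (8.81) and the highest Havcr1 (8.31), itself a gene of the list. Vehicle replicates 2 and 5, the vehicle arrays highest for Cdkn1a (8.43 and 8.58), each had a list mean of 6.47. A relation between Cdkn1a and these markers was not tested. Of 11 macrophage markers 7 rose, with list means of 6.67 to 6.97 in CsA arrays and 6.15 to 6.31 in vehicle arrays. Of 8 adipocyte markers 1 rose, Retn, joined by Cfd without CsA replicate 2 and by Cidec without vehicle replicate 1 (both named after their values were seen), with list means of 5.49 to 6.10 in CsA arrays and 5.20 to 6.09 in vehicle arrays. Retn and Cfd were both called within the male arrays and when female RNA was a term (limma adjusted p of Cfd = 0.0312 and 0.0496), and the median difference of the list was 0.67 log2 units in the male arrays, against 0.39 over all arrays. Over all arrays limma called none of 8 T cell, 7 neutrophil, 4 red cell and 9 kidney markers, of which 1, 0, 1 and 3 were under 0.05 before adjustment. Without CsA replicate 2, the red cell gene Hbb-bt was called higher and the kidney gene Slc12a3 lower (adjusted p = 0.00791 and 0.0382). Both were also called in the male arrays, with differences of 1.21 and -0.43 (limma adjusted p = 0.00503 and 0.0306). A term for female RNA, which must give the same differences, called them too (0.00866 and 0.0257), and so did array weights (0.04 and 0.0417). Slc12a3 was also called with genes at or above the 25th percentile or the median of mean signal (0.0435 and 0.0251). With the trend and robust options of eBayes it was called as well (0.0219). The part of these markers in the Ccng1 difference was not tested.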

How the data were processed

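The authors deposited log2 values for each feature of the Affymetrix Mouse Gene ST 2.0 array, to which RNA amplified from 200 ng per kidney sample was hybridised, per the labels' protocols. RMA and Partek 6.4 are named in the submitters' processing notes, without order or settings. The annotation version is not given in the sources used here, nor is the build. Detection calls and scan dates were not used here. Both deposited tables held the same 41345 features and identical values. Features were named through RefSeq accessions (21749), gene identifiers (2288), symbols (8203) or synonyms (231) with the gene table of GRCm38.p6, and 8874 had no symbol. The feature with the highest mean stood for each gene. Array medians lay between 5.14 and 5.21, and the number of arrays limits the precision.

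Groups came from the source descriptions. The test was limma's (version 3.58.1, R 4.3.3; lmFit and eBayes, 2-sided) without covariates, with Benjamini-Hochberg adjustment over 30895 genes and a threshold of 0.05. Differences are CsA minus vehicle. Arrays with Xist above the mean of 4 Y-linked genes were taken as female. The fit was tested on simulated arrays. The members, the other gene lists and the alternatives were chosen with earlier results of these data known. Genes named were the 10 members, up to 4 called genes per list (with none called, the smallest p) and 7 genes set by name. Of 7 red cell markers, 3 were not matched to a feature. No list was tested as a set.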

Additional observations from a re-analysis of the deposited data

Results flagged for a closer look

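Among 76 groups of 5 arrays, 2 for each named gene outside the sex-linked list, 4 held an array far from the others, where chance alone gives about 1 in 20 groups. Trp53 was 7.41 log2 units in CsA replicate 2, with the nearest CsA array at 7.59. Sesn1 was 6.83 in CsA replicate 1, with the nearest at 6.44. Trp53inp1 was 7.53 in CsA replicate 2, with the nearest at 7.87, and the macrophage gene C1qb was 8.99 there, with the nearest at 8.56. All 4 values came from the 2 CsA arrays with female RNA.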

How the results depend on the processing

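No member rose under any of the 10 alternatives or when any of the 10 arrays was left out, and Ccng1 fell under all of these but the 2 that dealt with sex. With male arrays only or a term for female RNA, 0 members were called lower, and Trp53 differed by 0.0116 log2 units in place of -0.0458. The cause was not tested. Leaving out arrays turned the sign of Gadd45a without CsA replicate 4 (range -0.0101 to 0.120, and -0.0906 to 0.159 in male arrays) and, in male arrays, that of Trp53 without vehicle replicates 4 and 5 (-0.0101 to 0.0455). The planned swap of the deposited tables was not run because they were identical, and Bbc3 fell below the filter at the median signal.

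Over all genes, 911 were called higher and 1093 lower. Keeping genes at or above the median signal, which leaves fewer genes tested, gave 1476 and 1808. Male arrays only gave 473 and 507, and a term for female RNA 501 and 509. Leaving out 1 array gave 560 to 883 higher and 574 to 1044 lower, and within the male arrays, where fewer samples remain, 97 to 519 and 64 to 523. CsA replicate 2 and vehicle replicates 2, 3 and 4 each lowered both counts by over 1.5 times, and vehicle replicate 1 the lower count. No paired analysis was possible because the labels give no replicate numbers shared between the groups.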
